A study of Mus musculus with 12 samples.

Results

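The cleavage and polyadenylation factors described here are 10 genes, *Cpsf2*, *Fip1l1*, *Cstf2*, *Cstf2t*, *Cpsf6*, *Nudt21*, *Pcf11*, *Papola*, *Pabpn1* and *Rbbp6*, chosen by symbol and found by Ensembl identifier among 37991 counted genes. All 10 were among the 16399 genes with enough reads to be tested. Poly(A) RNA of whole hippocampus from C57BL/6N mice aged 6 to 7 months was sequenced 1 h after passive avoidance (PA) training, a task in which a mouse learns to stay out of a compartment where it received a foot shock. There were 6 *Gadd45a*-/- mice (Gadd45a-KO) and 6 wild-type siblings (Wildtype) from crosses of heterozygotes, 1 library per mouse, and no untrained mice. In the mutant line the exons ahead of the last one were replaced by a neomycin cassette driven by the phosphoglycerate kinase promoter, in all cells and throughout life. The comparison asks whether the mRNAs of these factors stood at different levels in the 2 genotypes after training.

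Almost every mRNA gets its 3′ end by cutting the nascent transcript and adding a poly(A) tail. CPSF reads the AAUAAA signal and cuts, CstF binds the U-rich and GU-rich stretch downstream of the cut, CFIm binds UGUA motifs upstream and bears on which of several sites is used, CFIIm links cutting to the end of transcription, and poly(A) polymerase makes the tail while PABPN1 coats it in the nucleus. Neurons are known for long 3′UTRs that end at distal sites, so the amounts of these factors are of interest in hippocampus.

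The reads of *Gadd45a* itself (chromosome 6) went against the labels. The Wildtype-labelled libraries held 102 to 154 reads of the gene and the libraries labelled Gadd45a-KO held 946 to 1179, or 2.58 ± 0.481 and 21.4 ± 1.07 CPM (counts scaled to a common library size; SD, n = 6 each). The gene counts do not separate the deleted exons from the one that remains, so they do not check the deletion, and every direction below follows the labels. Libraries held 44594261 to 55540601 reads in genes, so that 1 read in the deepest library was 0.018 CPM. Markers of excitatory hippocampal neurons (7 genes, none at 0) summed to 2388 to 2726 CPM in the Wildtype-labelled libraries and 2337 to 2624 CPM in those labelled Gadd45a-KO, with a median log2 fold change of -0.088 and 1 of the 7, *Zbtb20*, lower at 1% FDR. Thalamic markers (8 genes, none at 0 reads) summed to 94.5 to 146.6 CPM in the Wildtype-labelled libraries and 108.1 to 538.4 CPM in those labelled Gadd45a-KO, of which replicates 2 and 3 stood highest. Oligodendrocyte markers (5 genes, none at 0) summed to 2248 to 3562 CPM and 2910 to 7066 CPM, with Gadd45a-KO replicate 3 highest. The share of reads in no gene was 14.4% to 15.8% in the Wildtype-labelled libraries and 13.0% to 14.3% in those labelled Gadd45a-KO, with no overlap. The part of these differences in the values below was not tested, but the fitted fold changes, the counts of genes called and the *Cstf2t* to *Cstf2* ratio were also computed without Gadd45a-KO replicates 2 and 3. In bulk tissue, fewer cells of a type and less RNA per cell cannot be told apart.

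The factors make their own mRNAs by the reaction they carry out, and the last 30 annotated bases of their transcripts were searched for the signal that CPSF reads. Sequences were read from the NCBIM37 genome build at the end of the coding transcript that reaches farthest. They are printed 5′ to 3′ on the transcribed strand, with AATAAA or ATTAAA in capitals. *Cpsf6*, *Cstf2*, *Cstf2t* and *Nudt21* are shown because the values below turn on them, and *Papola* as a window with neither hexamer. They lie in the 3′UTR at chr10:116781724-116781753 (minus strand), chrX:130621329-130621358 (plus), chr19:31161051-31161080 (plus), chr8:96543303-96543332 (minus) and chr12:107077100-107077129 (plus), in that order.
Cpsf6: tattgaaAATAAAaacaaagttttggtaat
Cstf2: ctgtcgtggattcAATAAAtattttaaaag
Cstf2t: atgaaaattaAATAAAaaggttgtataatt
Nudt21: gtttctcATTAAActctgaaaagtcttaga
Papola: aaacagatgatgtatttctccattgaaaac

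AATAAA, searched on the transcribed strand, stood in the last 30 bases of 6 of the 10 factors (*Cpsf6*, *Cstf2*, *Cstf2t*, *Pcf11*, *Fip1l1* and *Rbbp6*), against 53.3% of 14848 tested protein-coding genes. ATTAAA without AATAAA stood in *Nudt21* alone among them, against 12.8% of the genes. *Cpsf2*, *Pabpn1* and *Papola* held neither in this window, as did 33.9% of the genes. The annotated *Papola* gene runs on to position 107077154, past the end of its window at 107077129, and the bases between were not searched. TGTA, the motif that CFIm binds, stood in the last 100 bases of 8 of the 10 factors and of 53.6% of the genes. The annotated 3′UTR that ends there ran from 113 nt in *Pabpn1* and 280 nt in *Nudt21* to 4803 nt in *Cpsf6*. Other transcripts of *Pabpn1* and *Rbbp6* have longer annotated 3′UTRs, of up to 874 and 1500 nt, and their ends were not searched. Reads past an annotated end are not in the counts.

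None of the 10 factors differed between the labels at a false discovery rate (FDR) of 1% in edgeR's quasi-likelihood test. On the log2 scale 9 of them lay below 0 and *Cstf2t* above it, and the differences were small, from -0.144 to 0.018 with a median of -0.070. The median over all 16399 tested genes was 0.003, and 48.2% of these lay below 0. Over all tested genes the same fit called 430 (2.62%) lower under the Gadd45a-KO label and 4 (0.0244%) higher at 1% FDR. At 5% FDR 1 factor, *Cpsf6*, was lower, which is 10 percent of the factors against 4.43% of all tested genes. At an unadjusted p under 0.05, 4 factors were lower and 0 higher, against 9.35% and 4.34% of all tested genes, and DESeq2 called 0 at 1% FDR and 1 at 5%. No factor had libraries of one label wholly apart from the other, as 3.31% of all tested genes did. The data were precise enough to bound the differences. The 95% intervals of all 10 factors lay between changes of -15.2% and 7.07%. The coefficient of variation among the 6 libraries of a label was 1.82% to 7.30%.

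**Figure D1:**
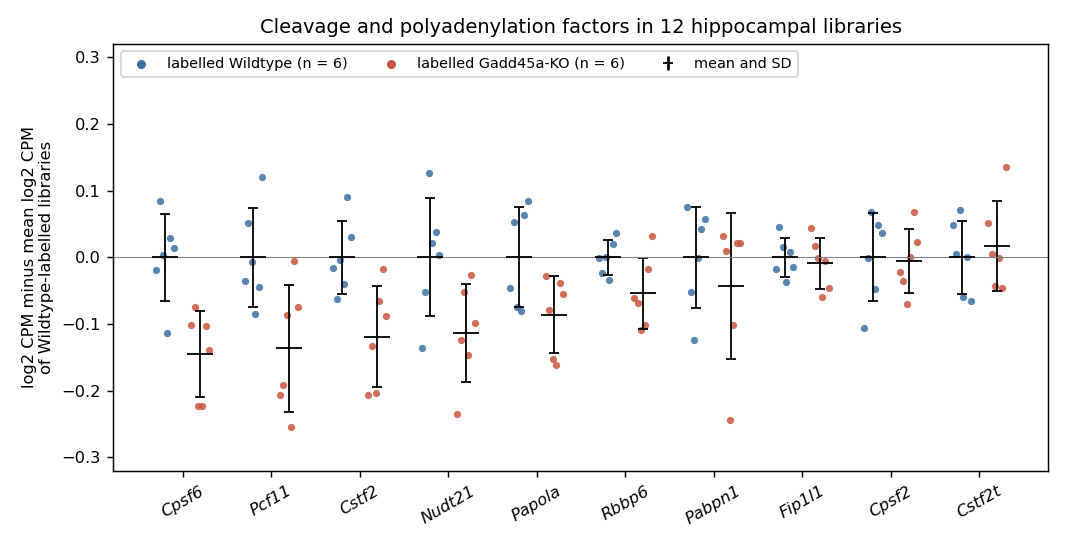
Each point is 1 library, and the y axis gives its log2 CPM minus the mean log2 CPM of the 6 Wildtype-labelled libraries for that factor; bars are mean and SD of 6. All 6 libraries labelled Gadd45a-KO sat below the Wildtype-labelled mean for *Cpsf6*, *Pcf11*, *Cstf2*, *Nudt21* and *Papola*, and the labels overlapped for every factor.

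CFIm held the largest difference. *Cpsf6* (ENSMUSG00000055531, chromosome 10:116781724-116814029) codes for the large subunit of the CFIm complex, which joins the UGUA-binding subunit to other proteins. Its lowest, median and highest levels were 129.5, 141.0 and 148.5 CPM in the Wildtype-labelled libraries and 120.0, 128.8 and 133.0 CPM in those labelled Gadd45a-KO. Of the latter, 3 lay below all Wildtype-labelled libraries and all 6 lay below their mean. The fitted log2 fold change was -0.144 (SE 0.039, 95% interval -0.227 to -0.061, edgeR adjusted p = 0.0493), a change of -9.52%. For this single gene the exact two-sided permutation test gave p = 0.00866, where 0.00216 is the smallest it can give. Permutation p values of single factors, here and below, are not adjusted over genes. Of the 12 fits that left out 1 library each (adjusted p 0.0259 to 0.163), only the one without Wildtype replicate 4 passed 5% FDR, and none passed 1%. The adjusted p was 0.0542 with RLE size factors, 0.0569 with at least 10 counts in every library and 0.0846 with no filter on low counts, none of which passed 5% FDR. It was 0.0133 in DESeq2 and 0.0170 in edgeR with a block for replicate number, which passed 5% FDR but not 1%. Without Gadd45a-KO replicates 2 and 3 the log2 fold change was -0.142 with an adjusted p of 0.131.

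*Nudt21* (ENSMUSG00000031754, chromosome 8:96543303-96560939) codes for the CFIm subunit that binds UGUA. It had the fewest reads of the 10, with 291 to 418 per Wildtype-labelled library and 294 to 352 per library labelled Gadd45a-KO. Its levels were 6.40, 7.10 and 7.68 CPM (lowest, median, highest) against 5.98, 6.52 and 6.91 CPM. All 6 libraries labelled Gadd45a-KO lay below the Wildtype-labelled mean, though 4 were inside the Wildtype-labelled range. The log2 fold change of -0.115 (SE 0.058, interval -0.239 to 0.008) had an edgeR adjusted p of 0.413, and the exact permutation p for the single gene was 0.0368. The third CFIm gene, *Cpsf7*, a paralog of *Cpsf6* that takes its place in the complex, stood at 104.0 ± 0.939 and 105.1 ± 3.65 CPM (SD, n = 6 each), a log2 fold change of 0.014 (SE 0.029). Of the 3 CFIm genes 1, *Cpsf6*, was lower at 5% FDR, as were 4.43% of all tested genes.

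The CstF RNA-binding subunit comes from a pair of paralogs. *Cstf2* (ENSMUSG00000031256, chromosome X:130593726-130621358) is the X-linked copy. *Cstf2t* (ENSMUSG00000053536, chromosome 19:31157331-31161080) is an autosomal copy with a single annotated transcript, known for its role in male germ cells and also expressed in brain. *Cstf2* stood at 113.0, 117.2 and 125.6 CPM (lowest, median, highest) in the Wildtype-labelled libraries and at 102.3, 109.3 and 116.6 CPM in those labelled Gadd45a-KO. Of the latter, 5 lay below all Wildtype-labelled libraries, and replicate 5 was inside their range. Its log2 fold change was -0.118 (SE 0.039, interval -0.202 to -0.034), which did not pass the threshold over all genes (edgeR adjusted p = 0.142) and had an exact permutation p of 0.00866. *Cstf2t* stood at 103.8, 108.8 and 114.1 CPM against 105.3, 108.8 and 119.3 CPM, with the medians equal at this rounding. Its log2 fold change was 0.018 (SE 0.038, interval -0.063 to 0.099, adjusted p = 0.911).

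Set against each other within a library, which removes any scaling between libraries, the paralogs differed by a small amount between the labels. The log2 ratio of *Cstf2t* to *Cstf2* reads per kb of exon was 1.172 ± 0.080 in the Wildtype-labelled libraries and 1.308 ± 0.104 in those labelled Gadd45a-KO (SD, n = 6 each). Its lowest, median and highest values were 1.075, 1.195 and 1.247 against 1.146, 1.321 and 1.430, and 4 of the libraries labelled Gadd45a-KO lay above all Wildtype-labelled ones. The difference of 0.136 had an exact two-sided permutation p of 0.0433. The exact p rose to between 0.0714 and 0.0823 when Wildtype replicate 4, 5 or 6 or Gadd45a-KO replicate 1, 2, 3 or 6 was left out. The transcripts differ in length, and in the fit with the length offset described below the gap between the log2 fold changes of *Cstf2t* (0.011) and *Cstf2* (-0.038) was 0.050, against 0.136 without it. Without both Gadd45a-KO replicates 2 and 3 the difference in ratio was 0.130, with an exact permutation p of 0.105. *Cstf2t* had 2.11 to 2.69 times the level of *Cstf2* per kb of merged exons, and 1.73 to 2.21 times per kb of the longest transcript. *Cstf1*, which codes for the WD-repeat subunit of the complex, had a log2 fold change of 0.024 (SE 0.036) at 26.3 ± 1.06 and 26.7 ± 0.862 CPM. Of the 4 CstF genes 0 passed 5% FDR, where 4.43% of all tested genes were lower.

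The 2 CPSF factors lay closest to 0 of the 10. *Cpsf2* (ENSMUSG00000041781, chromosome 12:103214184-103244203) codes for a subunit related to the CPSF nuclease but without its activity. Its levels were 54.8, 59.7 and 61.8 CPM (lowest, median, highest) in the Wildtype-labelled libraries and 56.1, 58.5 and 61.8 CPM in those labelled Gadd45a-KO. The log2 fold change was -0.006 (SE 0.036, interval -0.084 to 0.071), and the 2 sets of libraries covered nearly the same range. *Fip1l1* (ENSMUSG00000029227, chromosome 5:74931474-74994815), the U-rich binding subunit that contacts poly(A) polymerase, stood at 82.4, 84.3 and 87.2 CPM against 81.1, 84.2 and 87.0 CPM. Its log2 fold change of -0.009 (SE 0.028, interval -0.068 to 0.051) had the smallest error of the 10. The sign of both changed with the processing, as given in the closing section. *Cpsf1*, the largest subunit, had the lowest adjusted p of the other CPSF genes, 0.468 in edgeR, with a log2 fold change of -0.065 (SE 0.036). Of the 7 genes of CPSF and symplekin 0 passed 5% FDR and 5 lay below 0. Of all tested genes 4.43% were lower at 5% FDR and 48.2% lay below 0.

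*Pcf11* (ENSMUSG00000041328, chromosome 7:99792222-99818443), the CFIIm subunit that binds the tail of RNA polymerase II, was the second largest difference. It stood at 36.8, 38.5 and 42.4 CPM (lowest, median, highest) against 32.7, 35.5 and 38.9 CPM. Of the libraries labelled Gadd45a-KO 4 lay below all Wildtype-labelled ones. The log2 fold change was -0.135 (SE 0.048, interval -0.237 to -0.033), with an edgeR adjusted p of 0.179 and an exact permutation p of 0.0281. *Clp1*, an RNA kinase and the other CFIIm gene, stood at 6.60 ± 0.699 and 6.63 ± 0.417 CPM with a log2 fold change of 0.006 (SE 0.074).

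The genes that make and bind the tail showed smaller differences. *Papola* (ENSMUSG00000021111, chromosome 12:107018512-107077154), the main nuclear poly(A) polymerase, stood at 124.6, 132.2 and 139.7 CPM (lowest, median, highest) against 117.8, 125.8 and 129.3 CPM. All 6 libraries labelled Gadd45a-KO lay below the Wildtype-labelled mean. The log2 fold change was -0.086 (SE 0.040, interval -0.171 to -0.002), with an edgeR adjusted p of 0.352 and an exact permutation p of 0.0649. *Rbbp6* (ENSMUSG00000030779, chromosome 7:130109200-130146071), a ubiquitin ligase that associates with CPSF, stood at 115.8, 118.5 and 121.6 CPM against 109.9, 113.4 and 121.2 CPM. Of its libraries labelled Gadd45a-KO 4 lay below all others, and the log2 fold change was -0.054 (SE 0.031, adjusted p = 0.496). *Pabpn1* (ENSMUSG00000022194, chromosome 14:55511337-55517006) stood at 50.8, 56.1 and 58.3 CPM against 46.7, 55.9 and 56.6 CPM. Its lowest library was Gadd45a-KO replicate 3, and the log2 fold change was -0.042 (SE 0.051, adjusted p = 0.821). In the annotation 21.4% of the exon bases of *Pabpn1* also belong to *Gm20521* on the same strand, so reads there may be missing from its counts.

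**Figure D2:**
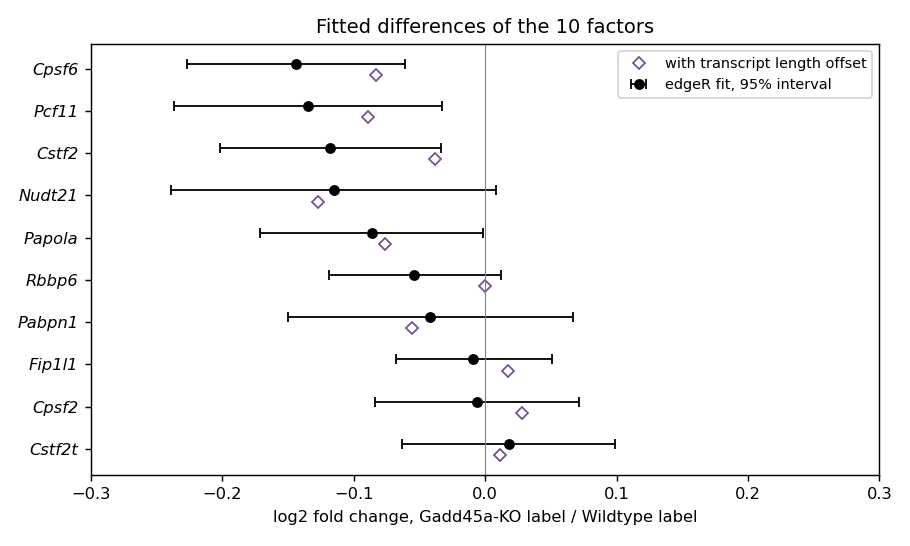
The x axis is the log2 fold change of the Gadd45a-KO label over the Wildtype label for each factor; filled circles with bars are the edgeR estimate and its 95% interval from 12 libraries, and open diamonds are the estimate with an offset for transcript length. Intervals of *Cpsf6*, *Pcf11*, *Cstf2* and *Papola* lie below 0 before adjustment over all genes, and the diamond of *Cstf2* sits at -0.038.

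Transcript length moved with the difference between labels over all genes, and the factors differ in length. In 10 bins of the 16365 tested genes with a known length, the median log2 fold change was between 0.005 and 0.019 in bins 1 to 7, -0.004 in bin 8 and -0.019 in bin 9. It was -0.080 in bin 10, the transcripts of 6221 nt and longer, where 73.3% of genes lay below 0 and 239 of the 430 lower genes were found. *Cpsf6* (6534 nt) and *Cstf2* (7514 nt) are in bin 10, and *Cpsf2*, *Fip1l1*, *Pcf11* and *Rbbp6* in bin 9. *Nudt21* is in bin 1, *Pabpn1* in bin 3, *Cstf2t* in bin 7 and *Papola* in bin 8. With a smooth offset for length in the fit, the log2 fold change of *Cpsf6* was -0.083 (edgeR adjusted p = 0.363), that of *Pcf11* -0.089 (0.396) and that of *Cstf2* -0.038 (0.800). *Nudt21* and *Papola* stood at -0.127 and -0.076 in that fit. In it 0 factors passed 5% FDR, where 2.84% of the genes tested were lower. The median of the 10 factors went from -0.070 to -0.047. The offset follows the length trend of each library without regard to its label, so it also takes out any difference between genotypes that goes with length. The smaller values in that fit are therefore not corrected estimates. Whether length itself, or another property of long transcripts, moved these values was not tested.

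**Figure D3:**
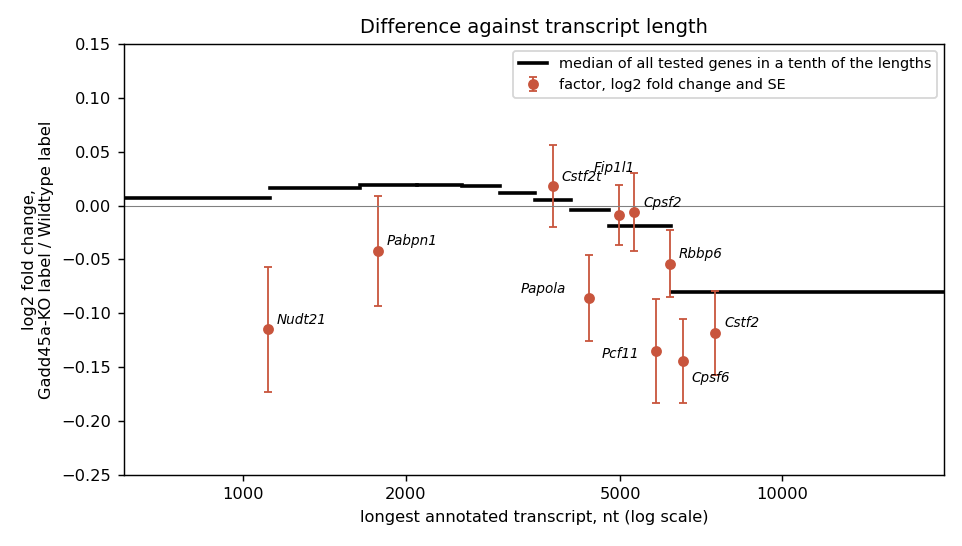
The x axis is the longest annotated transcript in nt on a log scale and the y axis the log2 fold change of the Gadd45a-KO label over the Wildtype label. Black segments are medians over all tested genes in 10 bins of length and points are the 10 factors with their SE; the median is -0.080 in the longest bin, which runs past the axis, and *Nudt21* lies at -0.115 among the shortest transcripts.

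Per length, *Cstf2t* mRNA was the most abundant of the 10 by merged exons and *Nudt21* and *Pcf11* the least. As CPM per kb of merged exons (RPKM), *Cstf2t* stood at 29.2 ± 1.22 (SD, n = 12), followed by *Cpsf6* at 20.4 ± 1.38, *Papola* at 19.4 ± 1.05 and *Pabpn1* at 18.0 ± 1.11. *Rbbp6* at 13.3 ± 0.449, *Cstf2* at 12.4 ± 0.751, *Cpsf2* at 11.1 ± 0.420 and *Fip1l1* at 8.07 ± 0.183 came next. *Nudt21* at 6.10 ± 0.414 and *Pcf11* at 5.82 ± 0.434 were lowest and did not differ beyond their spread, with *Nudt21* above *Pcf11* in 9 of 12 libraries. Every other gene lay above the next in this order in 12 of 12 libraries, although the ranges of mean ± SD of *Cpsf6*, *Papola* and *Pabpn1* overlap, as do those of *Rbbp6* and *Cstf2*. Reads past an annotated end are not in these counts, and the annotated 3′UTR of *Nudt21* ran only 280 nt. Whether reads of *Nudt21* lie beyond that end was not tested, so its low rank holds for the annotated gene. The order also depends on the length used. Per kb of the longest transcript, *Pabpn1* (30.8) and *Papola* (29.2) stood level with or above *Cstf2t* (29.2), *Fip1l1* stood at 16.9 and *Rbbp6* at 18.8, while *Cstf2t*, *Cpsf6*, *Cpsf2* and *Nudt21*, with a single annotated transcript each, have the same value by both lengths.

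**Figure D4:**
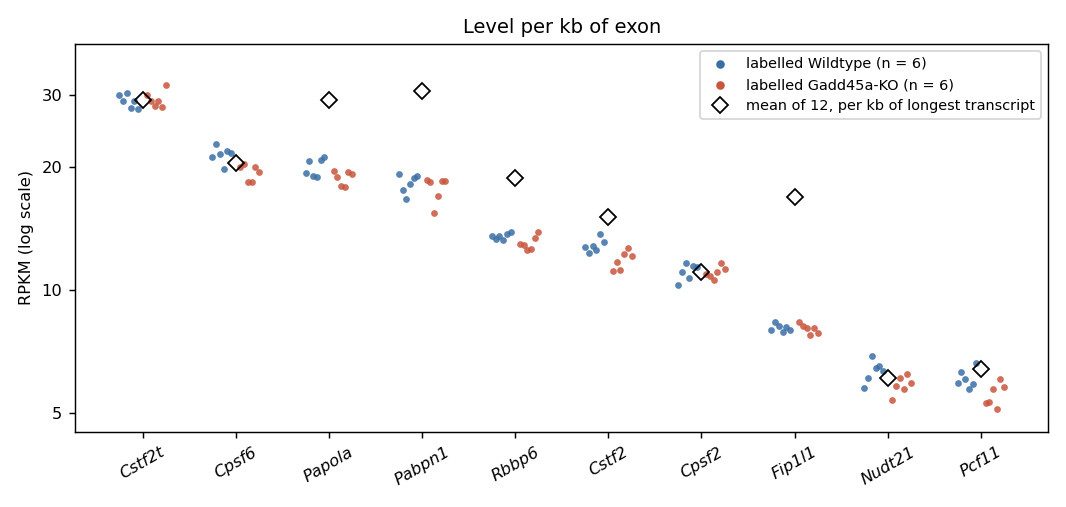
The y axis is RPKM on a log scale for each factor; points are single libraries by label, and diamonds are means of 12 libraries per kb of the longest transcript instead of merged exons. *Cstf2t* is highest by merged exons, at 29.2, and the diamonds of *Papola*, *Pabpn1*, *Rbbp6* and *Fip1l1* lie well above their points.

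The wider machinery held 55 genes with the 10 factors and 45 without them, all tested. At 1% FDR 1 gene was lower and 0 were higher, and at 5% FDR 6 were lower and 0 higher, which is 10.9% of the list against 4.43% of all tested genes in that direction. The median log2 fold change was -0.018 over the 55 genes. The gene past 1% FDR was *Ints6*, a subunit of Integrator, the complex that cuts the 3′ ends of small nuclear RNAs. It stood at 26.2 ± 0.864 and 22.7 ± 0.772 CPM (SD, n = 6 each) with no overlap, a log2 fold change of -0.204 (SE 0.035, edgeR adjusted p = 0.00287). In fits without Wildtype replicate 2 or 3 or without Gadd45a-KO replicate 2, 4 or 6 its adjusted p was 0.0108 to 0.0119, in the fit without both Gadd45a-KO replicates 2 and 3 it was 0.0290, and with the length offset 0.0135.

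Among the genes of tail synthesis and its partners, the lowest adjusted p of a gene outside the 10 was that of *Papolg*, a nuclear poly(A) polymerase related to *Papola*. *Papolg* was lower at 5% FDR, at 25.6 ± 0.883 and 23.2 ± 0.931 CPM, with no overlap between labels (log2 fold change -0.143, SE 0.037, edgeR adjusted p = 0.0398). All 7 genes of that group lay below 0, as did 48.2% of all tested genes, and 1 was lower at 5% FDR. The share of all tested genes lower at 5% FDR was 4.43%, which also goes beside the counts of the groups that follow. Among the 7, *Tent2* (-0.015, SE 0.058) and *Zc3h14* (-0.020, SE 0.032) lay within their errors of 0. *Papolb* had only 10 to 24 reads per library. *Cdk12*, a kinase of the polymerase tail, was the 1 of 10 termination genes lower at 5% FDR, at 31.5 ± 1.23 and 28.9 ± 0.664 CPM (log2 fold change -0.125, SE 0.033, adjusted p = 0.0472). Of the 19 genes of histone and small nuclear RNA 3′ ends, 3 were lower at 5% FDR: *Ints6*, *Ints2* (log2 fold change -0.185, adjusted p = 0.0136) and *Casp8ap2* (-0.283, adjusted p = 0.0136), the last 2 named after their values were seen. Of these 5 genes outside the 10 factors, the calls at 5% FDR were kept in 12 of 12 fits without 1 library for *Ints6*, 9 for *Ints2*, 9 for *Casp8ap2*, 2 for *Papolg* and 0 for *Cdk12*. Without Gadd45a-KO replicates 2 and 3 the adjusted p was 0.0152 for *Ints2*, 0.0450 for *Casp8ap2* and 0.237 for *Cdk12*, and *Papolg* did not pass 5% FDR. With the length offset 3 of the 55 genes were lower at 5% FDR, against 2.84% of the genes tested in that fit. The 3 U1 snRNP genes, whose particle holds back premature cleavage, lay between -0.018 and -0.012, with *Snrnp70* at 214.3 ± 13.7 and 211.6 ± 5.80 CPM. Without overlap between labels stood 4 of the 55 genes, *Papolg*, *Cdk12*, *Ints6* and *Scaf4*, against 3.31% of all tested genes.

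**Figure D5:**
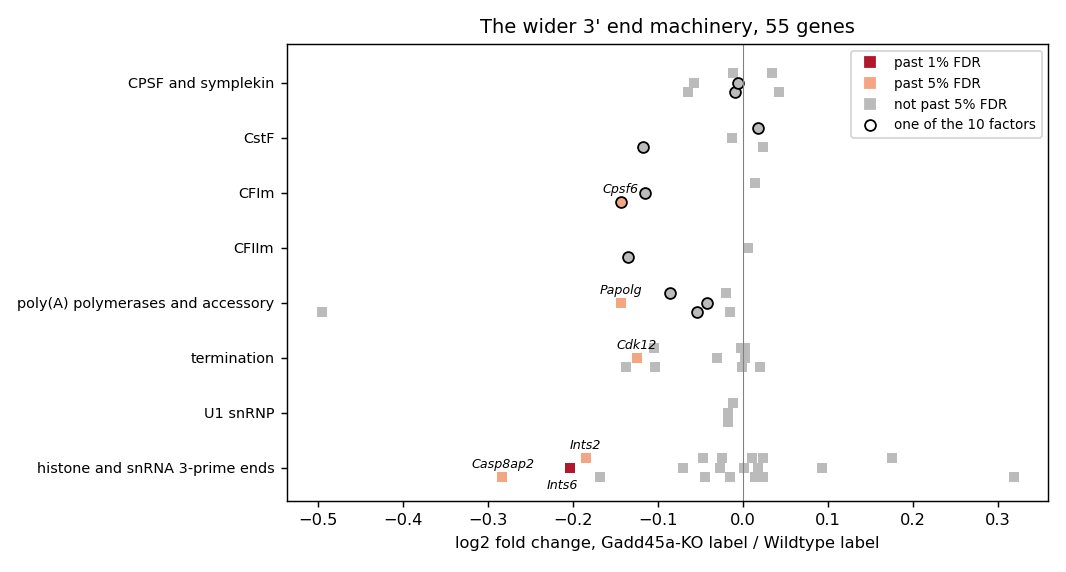
The x axis is the log2 fold change of the Gadd45a-KO label over the Wildtype label, and rows are the groups of the 55 genes; circles with an outline are the 10 factors, squares the other genes, and colour gives the FDR passed. Of the 6 genes past 5% FDR all lie below 0, and 1, *Ints6*, is past 1%.

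*Cpsf6* had the lowest adjusted p of the 10, and the genes whose levels followed it most closely from library to library, after taking out each label's mean, are given as a description over 12 libraries that share scaling and tissue composition. They were *Ccdc46* (Pearson r = 0.962, Spearman rho = 0.937), *Slc4a7* (0.956 and 0.965) and *Sp3* (0.934 and 0.867). Without the 2 libraries farthest from the median of *Cpsf6* the r values were 0.962, 0.911 and 0.860. Of the other factors, *Papola* (r = 0.773) and *Fip1l1* (0.711) followed *Cpsf6* most closely and *Nudt21* the least (r = -0.132). *Nudt21* had 291 to 418 reads per Wildtype-labelled library, against 5801 to 7242 for *Papola*, so counting noise weighs more on its r. That r therefore does not show whether *Nudt21* and *Cpsf6*, partners in CFIm, moved together.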

How the data were processed

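Poly(A) RNA of 12 hippocampi was sequenced in stranded 51-base single reads. Per the study's methods the authors aligned reads to NCBIM37 (mm9) with TopHat 1.4.1, counted them by strand with HTSeq 0.5.4p3 on Ensembl genes, and used DESeq 1.16.0. The deposited values are raw counts per gene. Reads in no gene (14.4% to 15.8% of counted, unassigned and ambiguous reads under the Wildtype label, 13.0% to 14.3% under the Gadd45a-KO label) were left out. Counts were fitted with edgeR 4.0.16 in R 4.3.3 (filterByExpr, TMM, quasi-likelihood test, no covariates, Benjamini-Hochberg over 16399 genes, 1% FDR as in the study); DESeq2 1.42.0 was an alternative. SEs were taken from the fold change and its test statistic. Fits were tested on simulated data. Single values were tested by exact two-sided permutation of 924 assignments. Symbols were matched for 37205 identifiers; lengths came from the GENCODE M1 annotation of NCBIM37, which is close to but not the release used for counting. Same-label pairs of libraries differed by more than counting noise (chi-square per degree of freedom 9.12 to 40.6 over 30 pairs).

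The members and lists were chosen with earlier results of these data known. Named were the 10 factors, list genes past 1% FDR, in each list the gene outside the 10 with the lowest adjusted p, *Gadd45a*, and the 3 genes most correlated with the factor of lowest adjusted p. Alternatives were size factors, filters, tool, threshold, replicate block, a transcript length offset (spline, 5 degrees of freedom) and leaving out each library; leaving out Gadd45a-KO replicates 2 and 3 and the longest transcript as length were chosen after seeing the data.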

Additional observations from a re-analysis of the deposited data

Results flagged for a closer look

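Among the 50 groups of 6 libraries examined (25 of the genes named in the text, each label), 1 held a library that stood apart by Dixon's test at 95%, where chance alone gives about 2.5. *Cdk12* stood at 33.9 CPM in Wildtype replicate 6 and at 30.5 to 31.7 CPM in the other Wildtype-labelled libraries, a gap of 0.646 of the whole range. None of the 10 factors had such a library in either label.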

How the results depend on the processing

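No factor passed 1% FDR in any of its 20 alternative fits (200 values), and 6 of the 10 kept their sign in all. The count of factors called was 1 at 5% FDR and 0 in every fit at 1% that left out 1 library (0 to 0). Lower genes numbered 661 with DESeq2, 247 with the length offset, 272 with the length offset and replicate block, 726 at 5% FDR, 199 without Gadd45a-KO replicates 2 and 3, and 239 to 467 when 1 library was left out. Higher genes numbered 19 with DESeq2, 20 at 5% FDR and 3 to 4 with 1 library left out. List genes called numbered 3 with DESeq2, 0 with the length offset, 0 with the length offset and replicate block, 6 at 5% FDR, 0 without those 2 libraries and 0 to 2 with 1 library left out. The log2 ratio of *Cstf2t* to *Cstf2* ranged from 0.112 to 0.168 with 1 library left out and was 0.130 without those 2 libraries, where the exact permutation p was 0.105. The cause was not tested.

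Signs that changed were those of small values. *Cpsf2* was 0.001 with at least 10 counts in every library, 0.000 with no filter, 0.028 with the length offset, 0.027 with the length offset and replicate block, 0.017 without those 2 libraries and -0.017 to 0.015 with 1 library left out. *Fip1l1* was 0.017 and 0.016 with the length offset without and with the block, and -0.011 to 0.009 with 1 library left out. *Rbbp6* was 0.000 with the length offset, *Pabpn1* -0.058 to 0.003 with 1 library left out, *Clp1* -0.009 and -0.006 with the length offset without and with the block and -0.023 to 0.054 with 1 library left out, and *Snrnp70* 0.003 without those 2 libraries and -0.032 to 0.026 with 1 left out.

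The labels give both genotypes replicate numbers 1 to 6, but nothing says that a number marks a shared litter or day. Deviations of same-numbered libraries correlated at -0.0761 to 0.262, over 0.1 in 5 of 6 pairs, and 4 of 12 libraries correlated best with their own number. The mean correlation of a Wildtype-labelled library with the libraries labelled Gadd45a-KO of other numbers was -0.0681 to 0.0213. As 1 pair was not over 0.1, the numbers were not taken as pairs, although the other 5 hint at shared deviations. With the replicate block 509 genes were lower and 5 higher at 1% FDR, 0 factors were called, and the adjusted p of *Cpsf6* was 0.0170. The list gene called was then *Casp8ap2* (0.00757) and not *Ints6* (0.0147, and 0.0498 with the length offset and block), and *Cdk12* was at 0.0832. The *Cstf2t* to *Cstf2* ratio was higher in 6 of 6 same-numbered pairs (0.136, exact sign-flip permutation p = 0.0312, the smallest that 6 pairs can give). That p takes the numbers as pairs, for which the labels give no ground. Depth limits *Nudt21* most, with 291 to 418 reads per library.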
